A study of Homo sapiens with 18 samples.

Results

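Induction of p53 was compared in cells that all held the same compound, AceTAGp300CBP-1. The comparison takes the 6 of the 18 RNA-seq libraries of the series whose labels name this compound: 3 libraries of induced cells and 3 of non-induced cells, each treated for 24 h. H1299 cells come from a non-small cell lung cancer and have lost their own p53 protein. In the induced cells doxycycline turns on a construct of wild-type p53 joined to the tags FKBP12F36V and HA. AceTAG compounds have 2 ends, 1 for an acetyltransferase and 1 for the FKBP12F36V tag, and so can hold the enzyme at the tagged protein. For this one the enzymes are p300 and its close relative CBP. Levels in the other 12 libraries are given beside these where they bear on the comparison: induced and non-induced cells with the PCAF/GCN5 compound (AceTAGPCAFGCN5-4), and induced and non-induced cells with DMSO, 3 libraries each. All samples have the genotype label wt. Cells were plated 24 h before the compound was added. Sample titles name the construct for induced samples only. A dose is not stated in the labels, nor is it clear from them if non-induced cells carry the construct or were also given doxycycline. Nor do they say if the line is 1 clone, or if replicates were separate cultures. P-values therefore measure the spread between these samples, which may be technical. Doxycycline, p53 and any difference in the cells themselves cannot be told apart as the difference between induced and non-induced cells.

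p53 is a transcription factor that is kept low by the ubiquitin ligase MDM2 and, once active, switches on genes of cell cycle arrest, apoptosis, DNA repair and metabolism. p300 and CBP acetylate p53 and the histones around its target genes. Genes of cell division fall under p53 largely by way of p21, the product of CDKN1A, which blocks cyclin-dependent kinases, so that pocket proteins and the DREAM complex can repress E2F targets and mitotic genes. In mitotic genes DREAM binds a short promoter element called CHR, while S phase genes carry E2F sites.

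The libraries held 20168343, 21954743 and 24182273 counts in induced cells, against 26419950, 21580814 and 19268808 in non-induced cells, and 9055888 to 29166322 over all 18. CPM, the unit of all levels, is the count of a gene per 1000000 counts of its library. No count in a non-induced library stands for a level of at most 3 counts, or 0.114 to 0.156 CPM, for counting error only. Mitochondrially encoded transcripts made up 1.91% to 2.43% of counts in induced and 2.13% to 2.31% in non-induced libraries. A principal component with 66.5% of the variance of the 6 libraries parted the groups, at 29.7 to 31.4 for induced against -31.9 to -28.6 for non-induced libraries. The third non-induced library stood apart on the next component (10.4% of the variance), at -23.8, with its partners at 15.5 and 7. In the DMSO groups the third induced library had 0.714% mitochondrial transcripts and the third non-induced library was the shallowest of all, so that comparisons with DMSO are also given without both. Among markers of the line KRT8, KRT18, VIM and CDH2 were detected in every library and CDH1 and EPCAM were at or near 0. Of the 17 markers of lung epithelium, immune, endothelial and fibroblast cells, none exceeded 0.957 CPM (DCN) in any of the 6 libraries. VIM, KRT18 and KRT8 fell on induction, with log2 changes of -0.59, -0.49 and -0.26. In bulk RNA fewer cells with a transcript and less of it per cell cannot be told apart.

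In what follows, a change is the log2 fold change, induced minus non-induced, ± its standard error from edgeR's quasi-likelihood fit with 3 libraries per group, and p-values are 2-sided and adjusted by Benjamini-Hochberg over all genes tested. Positions are on GRCh38.

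Induction with the compound changed about as many genes upwards as downwards. Of 14844 genes tested, 4844 (32.6%) passed at an adjusted p below 0.05: 2433 rose (16.4%) and 2411 fell (16.2%). The rises reached further than the falls: 367 genes rose and 274 fell at least 2-fold, 132 rose and 9 fell at least 4-fold, and 73 rose at least 8-fold while no gene that passed fell that far. The median change was 0.37 among genes that rose and -0.40 among those that fell, and 0.0051 over all genes tested. CPM values of induced and non-induced libraries did not overlap for 6523 genes (43.9%). Of 12344 protein-coding genes 18.3% rose and 17.9% fell, of 1662 long noncoding RNAs 7.76% rose and 8.54% fell, and of 637 pseudogenes 5.34% rose and 7.06% fell, with no matching for level.

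**Figure D1:**
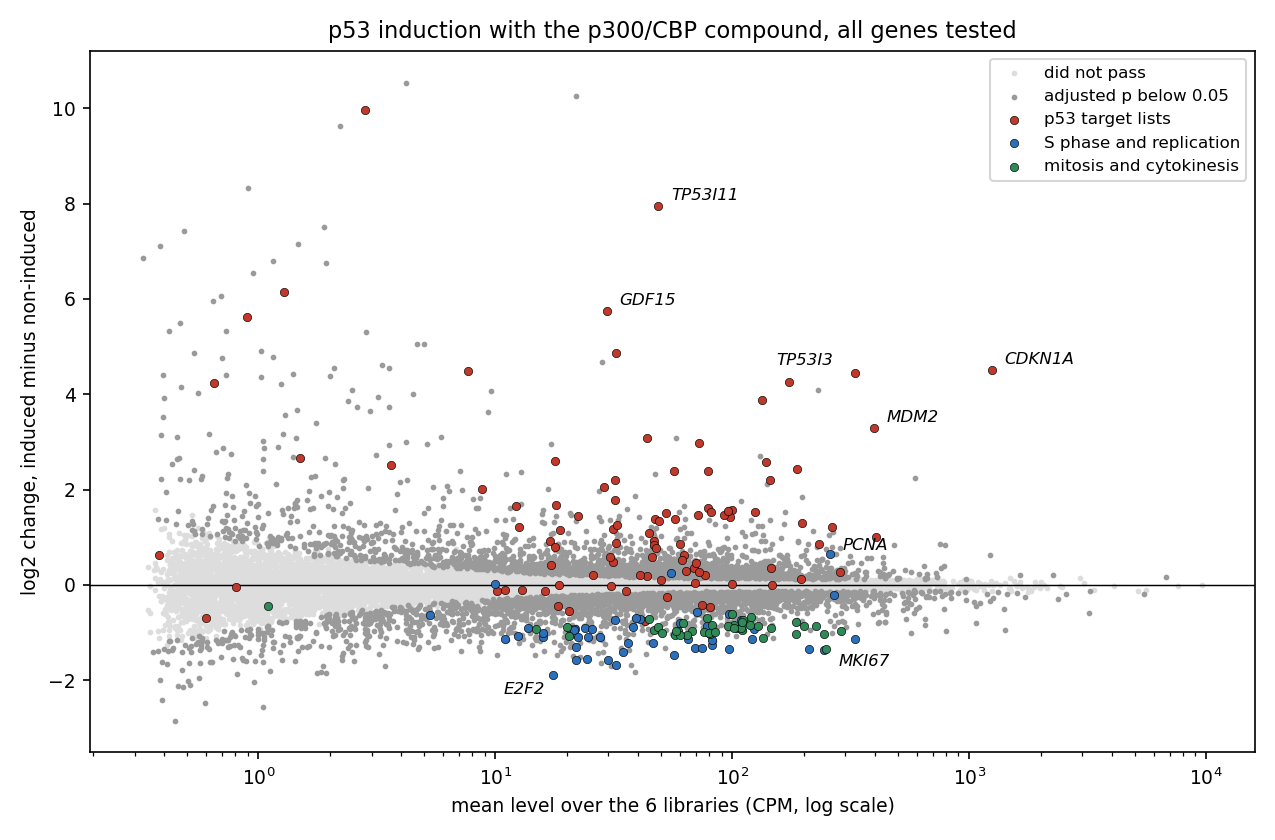
Log2 change on induction with the p300/CBP compound (induced minus non-induced, vertical axis) against the mean level over the 6 libraries (CPM, log scale), 1 point per gene tested. Members of the p53 target lists spread upwards to 7.94 for TP53I11 and beyond. Most members of the S phase and mitosis lists form a band below 0 that ends at -1.89 for E2F2, while a few S phase genes lie above 0, up to 0.65 for PCNA.

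The p53 target lists hold 102 genes, of which 95 had counts enough to be tested. Of these, 73 rose, 6 fell and 16 did not pass, with a median of 1.14, against 16.4% that rose, 16.2% that fell and a median of 0.0051 over all genes tested. Genes that are silent without p53 could pass the filter on counts through the induced libraries alone, so the share that rose is a description of the genes tested and not of all p53 targets.

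Among the arrest genes 7 of 9 rose. CDKN1A, on chromosome 6 (36676460-36687339), encodes the kinase inhibitor p21 and had 2332, 2451 and 2386 CPM in induced libraries, against 105, 109 and 100 CPM in non-induced libraries. BTG2, an antiproliferative adaptor of mRNA decay, had 59.6, 64 and 63.5 CPM in induced libraries, against 2.19, 2.64 and 1.45 CPM in non-induced libraries. For both genes every induced library lay far above every non-induced one, with log2 changes of 4.5 ± 0.06 (adjusted p = 7.96e-20) and 4.86 ± 0.12 (adjusted p = 1.19e-15). The polo-like kinase PLK3 rose by 2.20 ± 0.08, IER5, a regulator of heat shock factor and growth, by 2.39 ± 0.08, and the stress protein GADD45A, which binds PCNA and CDK1, by 1.53 ± 0.05. E2F7, an atypical E2F that represses cell cycle genes and is itself a p53 target, was the arrest gene that fell (-0.45 ± 0.10).

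Of the 9 feedback genes 7 rose and none fell. MDM2 had 677, 746 and 724 CPM in induced libraries, against 68.8, 72.5 and 78 CPM in non-induced libraries, a log2 change of 3.28 ± 0.06 (adjusted p = 6.74e-18) with no overlap. TP53INP1, a kinase-binding protein that promotes the apoptotic arm of p53, rose by 2.57 ± 0.10. ZMAT3, an RNA-binding protein that steers splicing, rose by 1.61 ± 0.05 and CCNG1, a cyclin that directs a phosphatase to MDM2, by 1.01 ± 0.05. PHLDA3, an inhibitor of AKT, went up on a low count: 31, 53 and 32 counts in induced libraries against 1, 0 and 1 in non-induced libraries, a ratio of 58.8 with a 95% counting interval of 15.9 to 492.

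Apoptosis genes moved in 1 direction, with 15 of 19 higher, none lower and 4 that did not pass. TP53I3, an oxidoreductase, had 630.2, 635 and 633 CPM in induced libraries, against 27.2, 28.6 and 31.1 CPM in non-induced libraries. FAS, the death receptor, had 74.5, 80.1 and 78.7 CPM in induced libraries, against 8.59, 7.88 and 11.1 CPM in non-induced libraries. IGFBP3, a secreted protein that binds insulin-like growth factors, had 15.7, 14.2 and 14.2 CPM in induced libraries, against 0.606, 0.278 and 1.09 CPM in non-induced libraries. Induced libraries of each gene lay close together and above every non-induced one, at log2 changes of 4.44 ± 0.05, 3.08 ± 0.09 and 4.49 ± 0.22. The BH3-only gene BBC3 (PUMA) rose by 2.61 ± 0.11, its relative PMAIP1 (NOXA) by 1.38 ± 0.07 and the pore former BAX by 1.57 ± 0.08. The TRAIL receptor TNFRSF10B rose by 1.30 ± 0.05 and the decoy receptor TNFRSF10D by 1.43 ± 0.06. FAS overlaps ACTA2, the gene of smooth muscle actin, over 809 bases on the other strand. ACTA2 had 28.7, 31.9 and 31.1 CPM in induced libraries, against 3.60, 3.98 and 4.15 CPM in non-induced libraries (2.96 ± 0.10), and since the library kit marks strand but its use in the counting is not given, how far the reads of this pair were kept apart is not known. The same holds for other named genes that overlap a tested gene on the other strand, such as MDM2 with CPM (8490 bases), TP53INP1 with NDUFAF6 (23407), POLH with GTPBP2 (10345), RPS27L with LACTB (16190) and RAD54L with LRRC41 (17285), and for CENPA, which shares 16943 bases of its strand with SLC35F6.

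In the autophagy and mTORC1 list 6 of 10 rose: the sestrin SESN1, which restrains mTORC1, by 2.39 ± 0.07, its relative SESN2 by 1.53 ± 0.05, the lysosomal protein DRAM1 by 1.79 ± 0.07 and PRKAB1, a subunit of the energy sensor AMPK, by 1.38 ± 0.06. In the DNA repair list 7 of 9 rose, with a median of 0.26. DDB2 and XPC, which find damaged bases for nucleotide excision repair, rose by 2.06 ± 0.08 and 1.46 ± 0.06, the bypass polymerase POLH by 1.5 ± 0.07 and the ribonucleotide reductase subunit RRM2B by 1.21 ± 0.05. The Fanconi gene FANCC fell (-0.54 ± 0.08).

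Metabolic targets rose in 10 of 14 cases. FDXR, which hands electrons to mitochondrial ferredoxin, had 243, 257 and 249.6 CPM in induced libraries, against 18.6, 15.5 and 16.1 CPM in non-induced libraries (3.88 ± 0.07). PLTP, a phospholipid transfer protein, had 119, 131 and 134 CPM in induced libraries, against 17.1, 15.8 and 15.5 CPM in non-induced libraries (2.98 ± 0.07). Neither gene's groups overlapped. The glutaminase GLS2 rose by 2.53 ± 0.19 and the hydrolase CMBL by 2.21 ± 0.05, while the lipin LPIN1 fell (-0.41 ± 0.06), as did the metalloreductase STEAP3 (-0.26 ± 0.06).

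The widest range was in the list of secreted, membrane and other targets, where 21 of 25 rose. TP53I11, a gene known for its induction by p53, had 91.9, 99.98 and 99.7 CPM in induced libraries, against 0.492, 0.510 and 0.104 CPM in non-induced libraries. GDF15, a stress cytokine, had 54.1, 57.2 and 62.7 CPM in induced libraries, against 0.908, 1.71 and 0.571 CPM in non-induced libraries. CYFIP2, an actin regulator, had 310.1, 344 and 334 CPM in induced libraries, against 16.1, 18 and 17.4 CPM in non-induced libraries. All 3 were separated without overlap, at log2 changes of 7.94 ± 0.15, 5.74 ± 0.16 and 4.25 ± 0.06. ABCA12, a lipid transporter, had 5.75, 4.55 and 6.53 CPM in induced libraries and no count in any non-induced library, which makes it at least 41.2-fold higher against the mean floor of 0.136 CPM per library. INPP5D, a phosphoinositide phosphatase, had 48, 61 and 58 counts in induced libraries, against 0, 0 and 2 in non-induced libraries (a ratio of 84.7, counting interval 23.1 to 705). KITLG, the ligand of the receptor KIT, rose by 2.02 ± 0.13, RPS27L, a ribosomal protein paralogue, by 2.42 ± 0.05 and the receptor NOTCH1 by 0.79 ± 0.11. THBS1, an inhibitor of angiogenesis that p53 is known to raise in other cells, was the member that fell (-0.75 ± 0.10).

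Of 6 p53-linked long noncoding RNAs tested, 5 rose. MIR34AHG, the host transcript of miR-34a, had 101, 117 and 151 counts in induced libraries, against 3, 1 and 5 in non-induced libraries, a ratio of 41.6 with a counting interval of 21.7 to 91.7. PVT1, the neighbour of MYC, rose by 0.87 ± 0.08 and TP53TG1 by 1.07 ± 0.09.

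Outside the lists, the rule that named the largest changes added NSG1, a neuronal endosomal protein, at 7.74, 9.70 and 7.69 CPM in induced libraries and no count in non-induced libraries (at least 61.5-fold higher). DPYSL4, of the dihydropyrimidinase family, had 52.7, 58.2 and 51.6 CPM in induced libraries, against 2.84, 1.30 and 1.97 CPM in non-induced libraries (4.68 ± 0.14). SEPTIN4, a septin with an isoform that binds the apoptosis inhibitor XIAP, had 6.40, 6.01 and 6.78 CPM in induced libraries, against 0.114, 0.185 and 0.519 CPM in non-induced libraries. Its log2 change was 4.61 ± 0.29, or 5.37 without the third non-induced library, which held most of its counts in that group. The neurofilament gene NEFM rose by 5.04 ± 0.31, or by 5.96 without the same library. ANKRD20A11P rose by 4.55 ± 0.26, but it belongs to a family of near-identical copies between which reads could be split.

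Genes of cell division fell. In the mitosis and cytokinesis list 41 of 42 members tested fell and none rose (16.2% of all genes fell), with a median of -0.91. MKI67, the proliferation antigen that coats mitotic chromosomes, had 141, 146 and 137 CPM in induced libraries, against 395, 373 and 298 CPM in non-induced libraries. CENPA, the histone of centromeres, had 14.3, 11.7 and 13.9 CPM in induced libraries, against 29, 25.8 and 28.2 CPM in non-induced libraries. Induced values of both were all below the non-induced ones, and the third non-induced library was the lowest of its group for MKI67 and the second for CENPA. Their log2 changes were -1.35 ± 0.08 (adjusted p = 5.74e-10) and -1.07 ± 0.09 (adjusted p = 4.9e-08). The log2 change was -1.11 for MYBL2, which joins the MuvB core to activate mitotic genes, -1.06 for the checkpoint kinase TTK, -1.04 for FOXM1, a driver of mitotic genes, and -0.96 for CDK1. PRC1, which bundles the spindle midzone, was the member that did not pass (-0.43 ± 0.30). It shares 29440 bases of its strand with AC068831.7 (-0.57), and how far the reads of this pair were kept apart is not known.

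Of 48 S phase genes 45 fell and 2 rose, with a median of -1.09. E2F2, an activator of S phase genes, had 7.34, 7.42 and 7.90 CPM in induced libraries, against 32.9, 26.9 and 23 CPM in non-induced libraries. Its relative E2F1 had 16, 14.7 and 15.8 CPM in induced libraries, against 56.4, 49.7 and 40.4 CPM in non-induced libraries. E2F2 carried the largest fall among named genes (-1.89 ± 0.12), E2F1 the next within the list (-1.68 ± 0.11), and again no induced value reached the non-induced range. The origin genes CDC6 (-1.58), ORC1 (-1.58) and MCM10 (-1.55) and the checkpoint mediator CLSPN (-1.47) fell as well. PCNA, the sliding clamp of DNA polymerases, went the other way, with 322, 318 and 307 CPM in induced libraries, against 205, 198 and 196 CPM in non-induced libraries (0.65 ± 0.05, adjusted p = 6.18e-09), as did the DNA ligase LIG1 (0.26 ± 0.08), whose call was lost without the second induced library (0.23, adjusted p = 0.091). CCNE1, the cyclin of the G1 to S step, did not pass (0.01 ± 0.11), and thymidylate synthase (TYMS) fell (-0.21) with a call that was lost without the second or the third induced library (-0.18, adjusted p = 0.0864, and -0.20, adjusted p = 0.0579) or the first non-induced one (-0.13, adjusted p = 0.0647).

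In the recombination and Fanconi anemia list 15 of 16 fell and none rose, with a median of -1.18. Among them were the homologous recombination gene XRCC2 (-1.50), the motor RAD54L (-1.47) and the helicase BLM (-1.46). PALB2, a recombination mediator, did not pass (-0.10 ± 0.09). Among lamins, HMGB and pocket proteins 7 of 15 fell, among them HMGB2 (-1.02 ± 0.06), the nuclear lamina gene LMNB1 (-0.96 ± 0.06) and the pocket protein RBL1 (-0.85 ± 0.08), and RB1 was the 1 that rose (0.23 ± 0.05). Of 13 G1 cyclins, kinases and inhibitors 9 fell. They included the phosphatase CDC25A (-1.23), CDK2 (-0.97) and the INK4 inhibitor CDKN2C (-0.67). CCND1, cyclin D1, had 390.1, 384 and 358 CPM in induced libraries, against 788, 766 and 717 CPM in non-induced libraries (-1.02 ± 0.05), with no overlap.

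**Figure D2:**
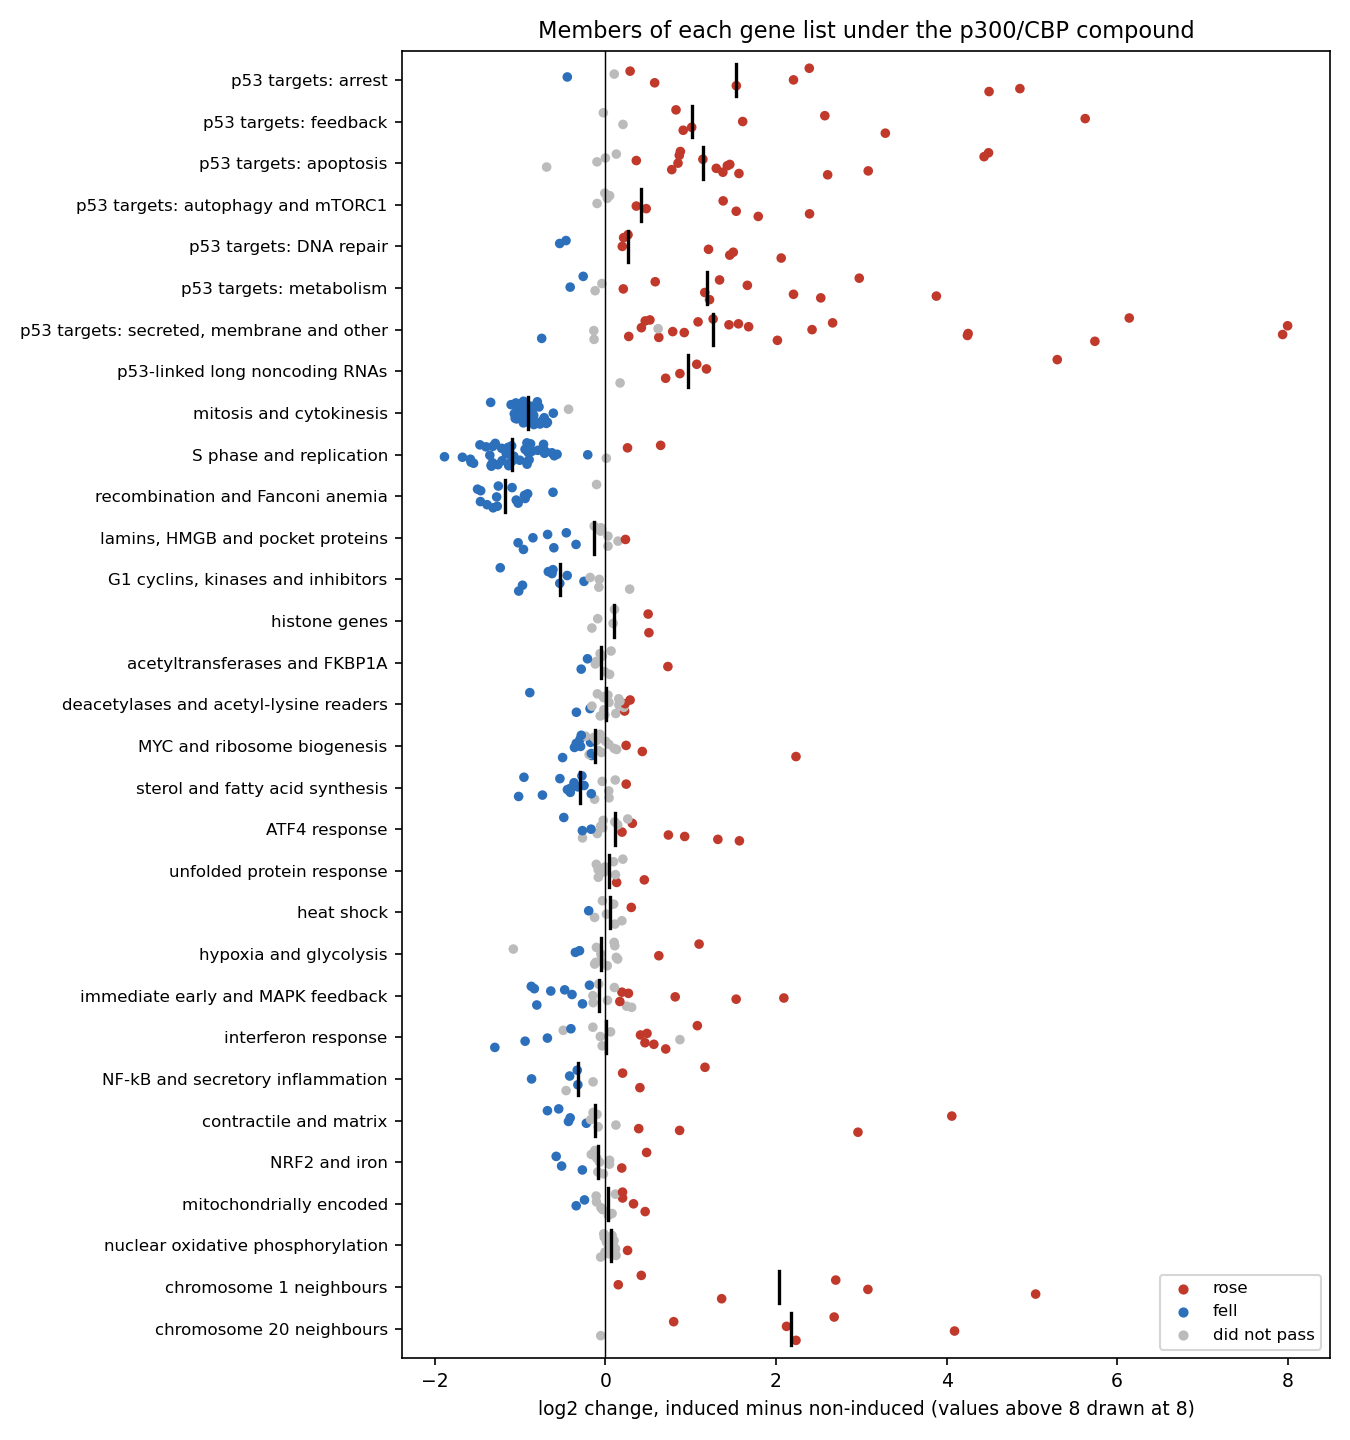
Log2 change on induction with the p300/CBP compound (horizontal axis, values above 8 drawn at 8) for each tested member of 31 gene lists, 1 point per gene, coloured by whether it rose, fell or did not pass, with the median as a bar. The p53 target lists lie to the right of 0 (medians 0.26 to 1.53), the mitosis, S phase and recombination lists to the left (medians -0.91 to -1.18), and most stress and metabolic lists around 0.

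Promoter sequences were read for the lists that fell together, since CHR and E2F elements are known to part mitotic from S phase genes. RefSeq windows (GRCh38.p14) from 250 bases before to 50 after the gene start were matched for 10401 of the 14844 genes tested, and motifs were searched on both strands: CHR as TTTGAA, E2F as TTCCCGC or TTGGCGC, and CCAAT. CHR occurred in 23 of 34 windows of mitotic genes that fell (67.6%), 1 of 38 of S phase genes that fell (2.63%) and 959 of all 10401 (9.22%). E2F occurred in 26 of 38 S phase windows (68.4%), 8 of 12 recombination windows (66.7%), 5 of 34 mitotic windows (14.7%) and 1560 of all windows (15%). CCAAT occurred in 25 of 34 mitotic windows (73.5%), 22 of 38 S phase windows (57.9%) and 3802 of all windows (36.6%), and it overlapped an E2F match in 105 windows and a CHR match in 6. The 1862 windows of all genes that rose held CHR in 7.3% and E2F in 11%, and the 1843 of all that fell in 14.2% and 22.2%. A match is a string of letters and not a bound site. The windows below show the element in capitals, for the 2 mitotic genes of largest fall that hold a CHR, MKI67 (chr10:128126374-128126673, minus strand) and CENPA (chr2:26785806-26786105, plus strand), and for E2F2 (chr1:23531184-23531483, minus strand) and E2F1 (chr20:33686336-33686635, minus strand), which were added after the motif counts were seen.
MKI67: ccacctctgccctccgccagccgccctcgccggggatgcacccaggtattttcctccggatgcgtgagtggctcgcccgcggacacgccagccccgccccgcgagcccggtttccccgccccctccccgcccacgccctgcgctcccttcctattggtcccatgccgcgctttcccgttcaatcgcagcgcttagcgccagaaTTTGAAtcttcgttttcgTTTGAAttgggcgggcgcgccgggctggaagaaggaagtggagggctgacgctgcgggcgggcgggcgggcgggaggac
CENPA: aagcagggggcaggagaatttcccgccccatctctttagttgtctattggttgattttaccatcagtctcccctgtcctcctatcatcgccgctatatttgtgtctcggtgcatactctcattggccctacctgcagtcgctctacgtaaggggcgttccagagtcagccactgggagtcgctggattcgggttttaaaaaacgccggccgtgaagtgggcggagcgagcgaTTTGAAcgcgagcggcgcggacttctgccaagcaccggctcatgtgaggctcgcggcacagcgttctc
E2F2: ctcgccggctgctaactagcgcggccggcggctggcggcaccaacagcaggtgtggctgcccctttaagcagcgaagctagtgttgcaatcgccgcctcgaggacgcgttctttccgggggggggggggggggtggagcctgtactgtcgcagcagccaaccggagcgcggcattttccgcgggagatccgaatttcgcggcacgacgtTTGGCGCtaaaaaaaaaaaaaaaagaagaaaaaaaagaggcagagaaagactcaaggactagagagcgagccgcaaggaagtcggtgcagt
E2F1: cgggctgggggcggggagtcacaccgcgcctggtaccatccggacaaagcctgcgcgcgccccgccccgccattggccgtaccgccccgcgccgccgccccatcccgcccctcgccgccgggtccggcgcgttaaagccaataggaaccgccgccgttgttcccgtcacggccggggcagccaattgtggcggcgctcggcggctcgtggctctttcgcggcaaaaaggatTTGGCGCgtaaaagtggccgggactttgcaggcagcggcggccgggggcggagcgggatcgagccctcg
MKI67 held CHR at 2 places, the first from 47 to 42 bases before the start. The CENPA match lay 18 to 13 bases, the E2F2 match 41 to 35 bases and the E2F1 match 19 to 13 bases before the start. For MKI67, E2F2 and E2F1 the RefSeq start is that of the gene as counted here, while for CENPA it lies 21767 bases inside the counted gene.

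The full p53 element was searched as a pair of half-sites of 10 bases at most 13 bases apart. Each half-site had to match RRRCWWGYYY exactly (R is A or G, W is A or T, Y is C or T). No mismatch was allowed, so elements that depart from this pattern were not counted. Such a pair was in none of the 60 windows of p53 list genes that rose, and in 4 of the 10401 windows (0.0385%). The 4 genes were PTCHD4, a membrane protein of the patched family, LNCTAM34A, a noncoding RNA on the strand opposite to MIR34AHG, MCC, a tumour suppressor candidate of colorectal cancer, and the ciliary dynein DYNC2H1. All 4 rose, against 16.4% of all genes tested. PTCHD4 and LNCTAM34A had so few non-induced counts that they could pass the filter on counts through the induced libraries alone. For both, a rise was thus favoured in advance. The windows are short and many p53 elements lie in introns or further off. PTCHD4 had 4.02, 3.73 and 3.80 CPM in induced libraries, against 0.379, 0 and 0.104 CPM in non-induced libraries, a change of 4.38 ± 0.41, or of 6.13 without the first non-induced library. LNCTAM34A had 1.04, 1.05 and 0.620 CPM in induced libraries, against 0.114, 0 and 0 CPM in non-induced libraries, a ratio of 19.95 with a counting interval of 6.5 to 99.5. Groups of both genes were apart, though LNCTAM34A (9182004-9196284) lies within the span of MIR34AHG (9148011-9198906). MCC rose by 1.08 ± 0.08 and DYNC2H1 by 0.34 ± 0.06. The windows of PTCHD4 (chr6:48111148-48111447, minus strand) and LNCTAM34A (chr1:9181954-9182253, plus strand), chosen after the matches were seen, carry the pair in capitals; in both the half-sites adjoin without a spacer. The RefSeq start of PTCHD4 lies 42508 bases before the start of the gene as counted here, so its window is not next to the counted gene's own start, and that of LNCTAM34A lies 200 bases inside the counted gene.
PTCHD4: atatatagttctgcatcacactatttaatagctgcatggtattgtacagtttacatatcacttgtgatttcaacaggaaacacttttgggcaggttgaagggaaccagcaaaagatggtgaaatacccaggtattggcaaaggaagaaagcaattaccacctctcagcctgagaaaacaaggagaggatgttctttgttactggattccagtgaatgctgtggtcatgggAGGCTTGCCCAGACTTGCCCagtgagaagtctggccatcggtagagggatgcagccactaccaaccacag
LNCTAM34A: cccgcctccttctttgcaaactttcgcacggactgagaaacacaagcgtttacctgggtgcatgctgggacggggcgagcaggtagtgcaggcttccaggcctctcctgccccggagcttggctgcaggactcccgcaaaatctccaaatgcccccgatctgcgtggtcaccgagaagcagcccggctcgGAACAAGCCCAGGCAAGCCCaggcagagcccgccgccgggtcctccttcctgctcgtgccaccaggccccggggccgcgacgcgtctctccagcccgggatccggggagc

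Among genes of the acetylation machinery the recruited enzymes did not pass, with EP300 at 0.05 ± 0.05 and CREBBP at -0.01 ± 0.05, nor did FKBP1A, the cell's own FKBP12 (0.07 ± 0.05). EP300 had 104, 109.9 and 115 CPM in induced libraries, against 104, 105 and 106 CPM in non-induced libraries, which overlap. KAT2B, which encodes PCAF, rose by 0.73 ± 0.06 and KAT2A, which encodes GCN5, fell (-0.28 ± 0.07). Of 10 genes in the list of acetyltransferases and FKBP1A 1 rose and 2 fell, and of 20 deacetylases and acetyl-lysine readers 3 rose and 3 fell, shares called that lie near or below the 32.6% over all genes tested. Among the 20, ATAD2, a bromodomain protein and E2F target, moved farthest (-0.89 ± 0.05).

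Stress and metabolic lists are read against the 16.4% of all genes tested that rose and the 16.2% that fell. In the sterol and fatty acid list 12 of 18 fell and 1 rose (median -0.30). The desaturase SCD had 522, 532 and 588 CPM in induced libraries, against 1038, 1012 and 1113 CPM in non-induced libraries (-0.96 ± 0.05), with no overlap. The sterol sensor INSIG1 (-0.74 ± 0.06) and fatty acid synthase FASN (-0.53 ± 0.07) also fell. Of 17 genes of the ATF4 response 6 rose and 3 fell: the stress factors ATF3 and DDIT3 rose by 1.57 ± 0.10 and 1.32 ± 0.12 and TRIB3, a pseudokinase, by 0.93 ± 0.08. In the immediate early and MAPK feedback list 6 of 21 rose and 8 fell. EGR1, an immediate early factor, rose by 1.53 ± 0.07, whereas the ERK feedback genes SPRY4 (-0.83 ± 0.05) and DUSP6 (-0.64 ± 0.07) and the AP-1 subunit FOSL1 (-0.81 ± 0.08) fell. MYC fell (-0.50 ± 0.07), as did 8 others of 24 genes of MYC and ribosome biogenesis, with NOLC1 at -0.36 ± 0.05 and CAD at -0.34 ± 0.06. Of 15 hypoxia and glycolysis genes 2 rose and 2 fell, shares below those over all genes that say nothing about the list. Among them the lipase inhibitor ANGPTL4 rose by 1.10 ± 0.07 and the glucose transporter SLC2A1 by 0.63 ± 0.06, while LDHA fell (-0.35 ± 0.05). VCAN, a matrix proteoglycan, had 16.2, 20.3 and 17.8 CPM in induced libraries, against 1.14, 1.02 and 1.04 CPM in non-induced libraries (4.06 ± 0.16). In some of the remaining lists counts lay near or below these shares and say nothing about the lists. There, 2 of 10 genes of the unfolded protein response rose, and 1 of 8 heat shock genes rose and 1 fell. Of 15 nuclear genes of oxidative phosphorylation 1 rose. Shares lay above these in both directions in the interferon list, with 6 risers and 4 fallers of 16. The same held for the NF-kB list, with 3 and 4 of 9, and the contractile and matrix list, with 4 and 5 of 14. Only the share of risers lay above in the histone list (2 and 0 of 6) and the mitochondrially encoded list (4 and 2 of 13). In the NRF2 and iron list (2 and 3 of 13) only the share of fallers did. These lists are small, and whether they differ from all genes was not tested.

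Most tested genes of 2 groups that lie close together on chromosomes 1 and 20, lists chosen because of earlier results, rose, but by unequal amounts. On chromosome 1, RALGPS2, an exchange factor for RAL (178725147-178921841), had 104, 104 and 102 CPM in induced libraries, against 12.1, 11.5 and 12.9 CPM in non-induced libraries (3.08 ± 0.07). TOR3A, a torsin ATPase (179082070-179098023), had 224, 230.2 and 229 CPM in induced libraries, against 36.1, 33 and 34.9 CPM in non-induced libraries (2.70 ± 0.05). All 6 neighbours tested rose, while 16.4% of all genes tested did. Because both lists were chosen with earlier results of these data known, the counts of risers on either chromosome only describe the genes tested. C1orf220 (178542752-178548889) was at 5.04 ± 0.24, the RAS regulator RASAL2 at 1.36 ± 0.06 and the kinase ABL2, which follows TOR3A, at 0.42 ± 0.05. The smallest rise, 0.15, was that of FAM20B, which lies between RALGPS2 and TOR3A. ANGPTL1 here, and CPXM1 and TMC2 on chromosome 20, had too few counts to be tested. A transcript known only by a clone name, AL449106.1 (178724306-178726285), which overlaps the start of RALGPS2 on the other strand over 1139 bases, was looked at after its value was seen. It had 44.4, 42.1 and 45.0 CPM in induced libraries, against 0, 0.0927 and 0 CPM in non-induced libraries, a ratio of 1476 on 2 non-induced counts (counting interval 408 to 12200.0). On chromosome 20, NOP56, a core protein of box C/D snoRNPs (2652593-2658393), had 946, 1000.0 and 979.7 CPM in induced libraries, against 217, 195 and 205 CPM in non-induced libraries (2.23 ± 0.05). PCED1A (2835314-2841190) had 414, 430.4 and 460.1 CPM in induced libraries, against 27.3, 24.1 and 24.1 CPM in non-induced libraries (4.09 ± 0.06). Of the 6 tested there 5 rose, including the vacuolar sorting gene VPS16 (2.12 ± 0.05), the phosphatase PTPRA (0.80 ± 0.05) and GNRH2, a gonadotropin-releasing hormone (2.68 ± 0.31). IDH3B lies on the other strand, with its end 2 bases past the end of NOP56 in the file's coordinates, and did not pass (-0.06 ± 0.05). PCED1A and VPS16 overlap on opposite strands over 488 bases, and VPS16 and PTPRA on the same strand over 2549. NOP56 is the member of the ribosome biogenesis list that rose most, while most others of that list fell or did not pass. The rises were also seen without the compound. With DMSO RALGPS2 rose by 3.35, TOR3A by 2.69, C1orf220 by 5.71, PCED1A by 3.79 and NOP56 by 1.90. AL449106.1 had 1379, 1108 and 1336 counts in induced DMSO libraries, against 1, 0 and 5 in non-induced ones. In neither list did a gene's difference from DMSO or from the PCAF/GCN5 compound pass.

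Whether the response to induction differed from that in DMSO was tested as the difference between both changes, on 12 libraries that share none between the arms. Of 15618 genes 200 passed (1.28%): for 170 the change was more positive with the compound (1.09%) and for 30 more negative (0.192%). Of 95 p53 list genes 32 were more positive and none more negative, with a median difference of 0.40 against -0.0007 over all genes tested. Genes nearly silent elsewhere could pass the filter on counts through the induced libraries of the compound alone. For such genes a more positive difference was favoured in advance, so the count describes the genes tested. The count of these 32 ranged from 26 to 40 over the alternatives, with 39 when the third library of both DMSO groups was left out, and none was more negative in any of them. The total of 200 moved with single libraries: it was 432 without the third induced DMSO library, 123 without the first non-induced DMSO library, 125 without the second induced library of the compound, and 362 without the third library of both DMSO groups. The 30 more negative genes became 133 without the third and 51 without the second induced DMSO library, 13 without the second induced and 17 without the second non-induced library of the compound, and 14 and 17 without the first and the second non-induced DMSO library. On its own, induction in DMSO changed 2075 of 15055 genes (13.8%), of which 905 rose (6.01%) and 1170 fell (7.77%). This count and the 4844 with the compound come from separate fits whose libraries differ in spread and depth. They therefore do not compare the breadth of the 2 responses.

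**Figure D3:**
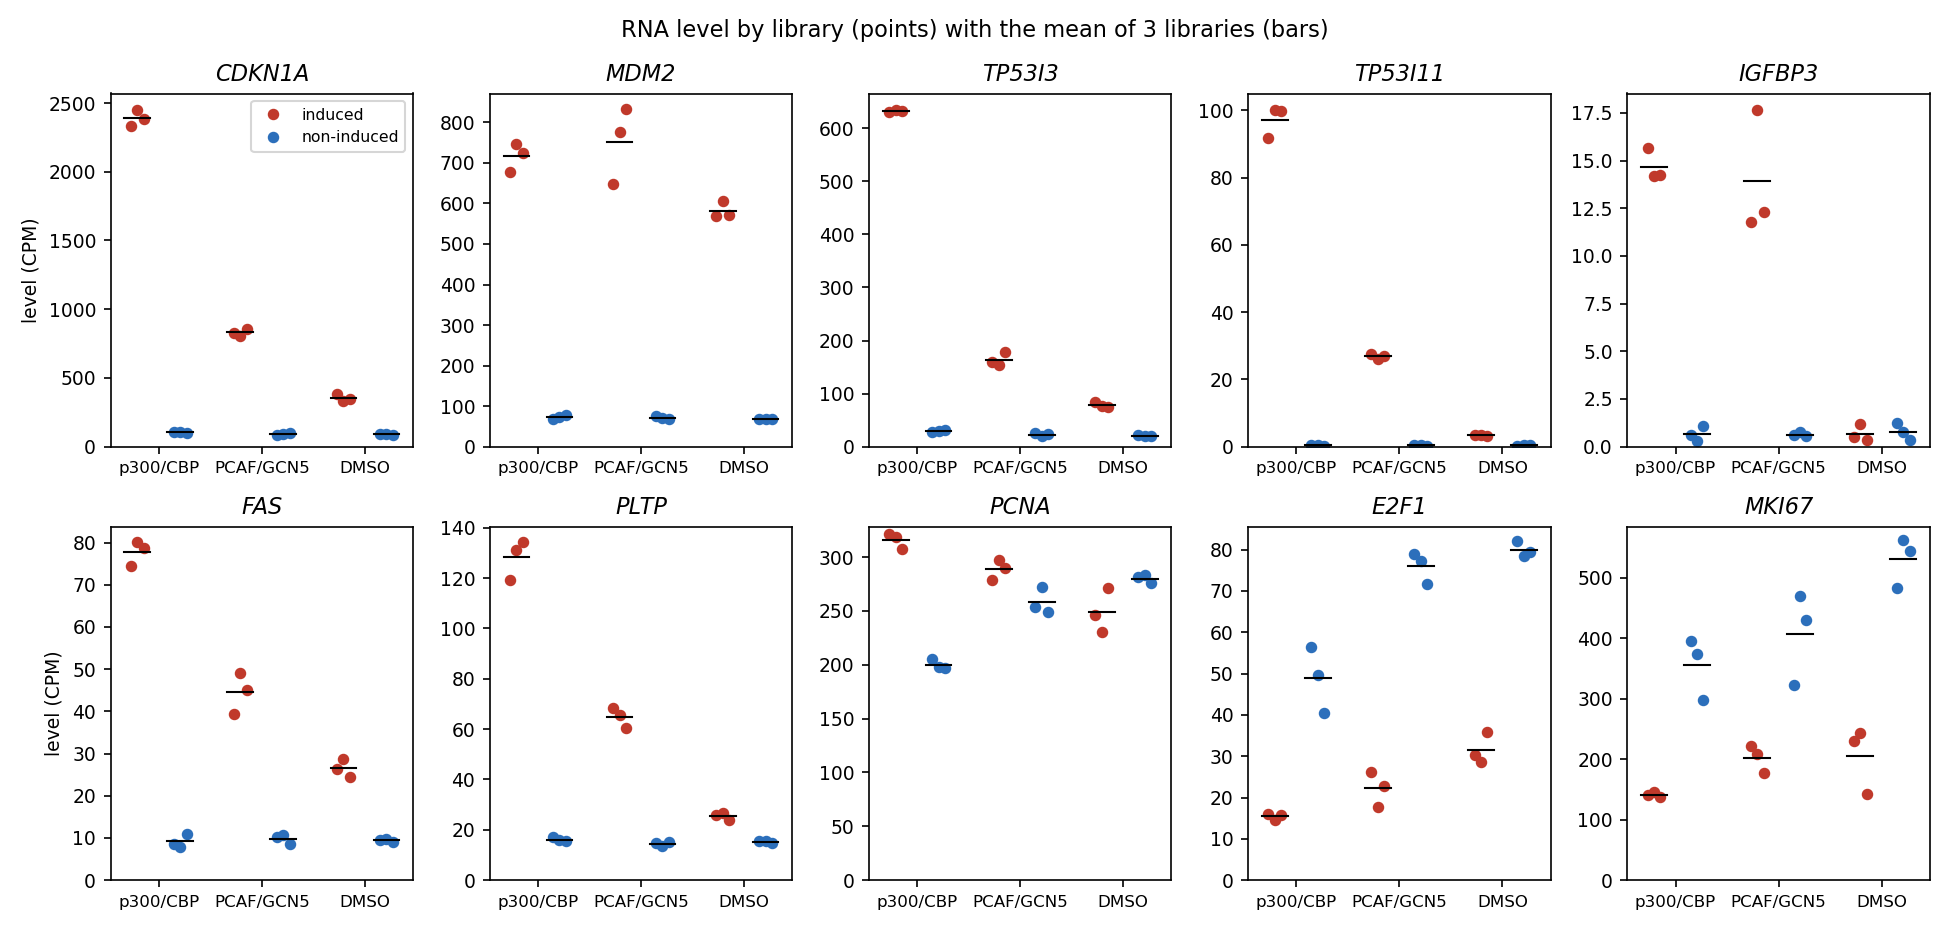
Level (CPM, each panel with its own axis from 0) of 10 genes in all 18 libraries, by compound, with induced libraries to the left of non-induced ones, points for libraries and bars for means of 3. Induced levels of CDKN1A, TP53I3, TP53I11 and FAS are highest with the p300/CBP compound and lowest with DMSO without overlap, while induced levels of MDM2 overlap between the compounds.

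The gap was wide for CDKN1A. With DMSO it had 380.4, 332 and 343 CPM in induced libraries, against 91.3, 91.8 and 85.7 CPM in non-induced libraries (1.95 ± 0.07), so the induction change was larger with the compound by 2.56 ± 0.09 (adjusted p = 8.99e-11). TP53I3 had 84.3, 76.7 and 74.1 CPM in induced DMSO libraries, against 21.1, 20.9 and 20.3 CPM in non-induced ones, a difference between both changes of 2.56 ± 0.08 (adjusted p = 4.46e-11). TP53I11 had 3.62, 3.39 and 3.31 CPM in induced DMSO libraries, against 0.190, 0.429 and 0.442 CPM in non-induced ones, with a difference of 4.60 ± 0.54 (adjusted p = 0.000211). For all 3 genes the induced levels with DMSO lay below every induced level with the compound. For MDM2 the gap was small. With DMSO it had 569, 605 and 571 CPM in induced libraries, against 69.1, 69.2 and 67.2 CPM in non-induced ones, and its difference of 0.23 ± 0.08 did not pass (adjusted p = 0.268; unadjusted 95% interval 0.05 to 0.41). For GDF15 the difference of 0.62 ± 0.49 did not pass either (interval -0.51 to 1.75).

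Some targets moved with the compound and little or not at all in DMSO. IGFBP3 had 0.482, 1.20 and 0.339 CPM in induced DMSO libraries, against 1.25, 0.780 and 0.331 CPM in non-induced ones, with overlap (-0.41 ± 0.54), and the difference was 4.95 ± 0.60 (adjusted p = 0.00025), or 5.63 once the second induced DMSO library was left out. KITLG changed by 0.03 ± 0.19 in DMSO and by 2.02 ± 0.13 with the compound, a difference of 1.99 ± 0.22 (adjusted p = 0.000138). NOTCH1 was at -0.29 ± 0.10 in DMSO, a difference of 1.08 ± 0.17 (adjusted p = 0.00239). For KITLG and NOTCH1 the change in DMSO did not pass. Other members with a larger change under the compound were PLTP (difference 2.27 ± 0.11), FAS (1.63 ± 0.14), CMBL (1.47 ± 0.14), SESN1 (1.24 ± 0.14), RPS27L (1.20 ± 0.22), POLH (1.20 ± 0.11), CYFIP2 (1.19 ± 0.10), PRKAB1 (1.11 ± 0.15), ZMAT3 (0.93 ± 0.10), RRM2B (0.71 ± 0.08), PLK2, a polo-like kinase (0.70 ± 0.13), and TNFRSF10B (0.62 ± 0.08). Outside the lists DPYSL4 differed by 3.18 ± 0.29, SEPTIN4 by 4.55 ± 0.68 (5.31 without the third non-induced library) and, in the contractile and matrix list, VCAN by 2.84 ± 0.36.

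**Figure D4:**
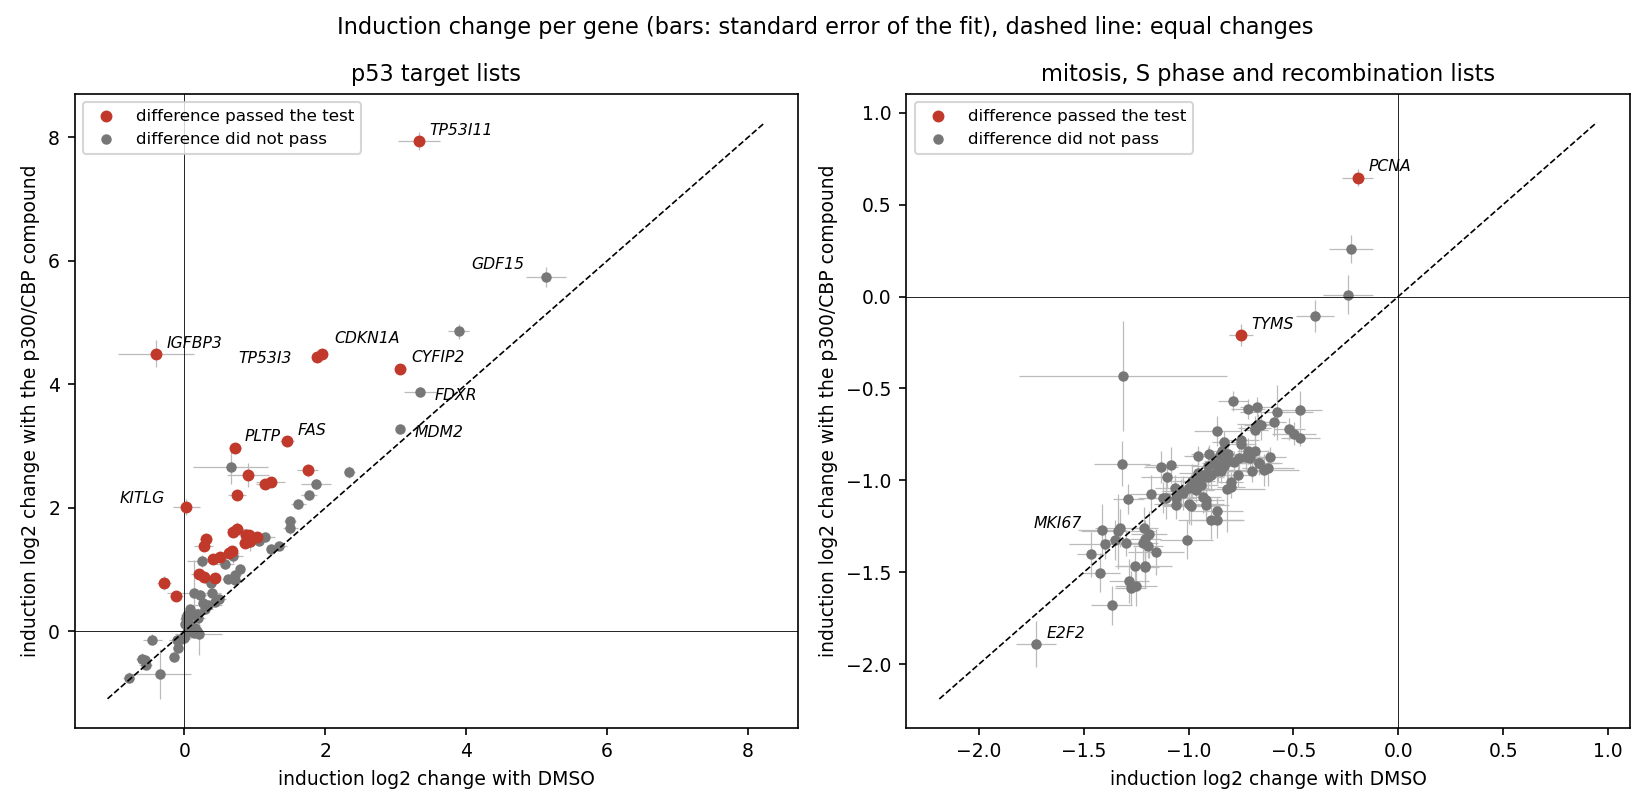
Log2 change on induction with the p300/CBP compound (vertical axis) against that with DMSO (horizontal axis), with standard errors as bars, for the p53 target lists (left) and the mitosis, S phase and recombination lists (right); ABCA12 and PHLDA3, nearly without counts in non-induced cells, are left out. Red p53 targets lie above the dashed line of equal changes, while mitosis and S phase genes lie along it except PCNA and TYMS.

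In the cell cycle lists few differences passed. None of 42 mitosis genes, 2 of 48 S phase genes and none of 16 recombination genes had a difference that passed, and the median differences were -0.07, -0.04 and -0.08. With DMSO E2F2 had 14.7, 15.5 and 17.1 CPM in induced libraries, against 48.5, 52.5 and 53 CPM in non-induced ones, and its difference was -0.16 ± 0.17 (adjusted p = 0.785). The self-test recovered 39.2% of simulated 1.5-fold differences in this comparison, so smaller ones could be missed. Its genes were drawn at random over all levels, and the share for these lists is not known. The 2 S phase genes were PCNA and TYMS. PCNA had 246, 231 and 271 CPM in induced DMSO libraries, against 281, 283 and 276 CPM in non-induced ones, and differed by 0.85 ± 0.09 (adjusted p = 8.69e-05), while TYMS differed by 0.55 ± 0.09 (adjusted p = 0.00522). For PCNA the non-induced levels did not overlap either, at 205, 198 and 196 CPM with the compound and 281, 283 and 276 CPM with DMSO. More negative differences included CCND1 (-0.46 ± 0.09), whose call was lost without the second non-induced library of the compound (-0.45, adjusted p = 0.0567), SPRY4 (-0.53 ± 0.08) and ANGPTL4 (-0.84 ± 0.12), which rose by 1.95 ± 0.10 in DMSO. ABCD2, a peroxisomal fatty acid transporter, differed by -0.92 ± 0.16, the neurotensin receptor NTSR1 by -0.82 ± 0.14 and LINC02593 by -1.27 ± 0.24. ATF3 differed upwards, by 0.81 ± 0.15.

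Fewer genes passed against the PCAF/GCN5 compound than against DMSO. The libraries of the PCAF/GCN5 compound and of DMSO differ in spread, so these counts do not rank how far the inductions differ. Of 15656 genes 51 passed (0.326%), with 40 more positive (0.255%) and 11 more negative (0.0703%) under the p300/CBP compound. Of 96 p53 list genes 13 were more positive and none more negative. That count fell to 8 with all 6 groups in 1 fit or without the first induced p300/CBP library. Here, too, genes nearly silent elsewhere could pass the filter through the induced p300/CBP libraries alone, which favoured a more positive difference. The 11 more negative genes became 4 and 5 without the first and the second induced p300/CBP library, 7 without the first induced PCAF/GCN5 library, and 17, 5 and 6 without the first, the second and the third non-induced PCAF/GCN5 library. On its own, induction with the PCAF/GCN5 compound changed 3646 of 15236 genes (23.9%), of which 1735 rose (11.4%) and 1911 fell (12.5%). This count, too, comes from a separate fit and does not compare the breadth of responses. CDKN1A had 829, 806 and 859 CPM in induced PCAF/GCN5 libraries, against 87, 92.6 and 97.9 CPM in non-induced ones, and the difference was 1.36 ± 0.09 (adjusted p = 1.24e-08). TP53I3 had 159.6, 153 and 178 CPM in induced PCAF/GCN5 libraries, against 25, 20.02 and 23.4 CPM in non-induced ones, and the difference was 1.63 ± 0.10 (adjusted p = 1.24e-08). Both induced groups with the PCAF/GCN5 compound lay between those with the p300/CBP compound and those with DMSO. FAS differed by 0.93 ± 0.15, PLTP by 0.85 ± 0.11, CMBL by 0.78 ± 0.08, NOTCH1 by 1.08 ± 0.16 and PCNA by 0.52 ± 0.08. IGFBP3 had 11.8, 17.6 and 12.3 CPM in induced PCAF/GCN5 libraries, against 0.587, 0.789 and 0.534 CPM in non-induced ones, with a difference between both compounds of 0.10 ± 0.42 (adjusted p = 0.972; unadjusted 95% interval -0.87 to 1.07). The difference of MDM2 was -0.07 ± 0.10 (adjusted p = 0.895; interval -0.31 to 0.16) and did not pass.

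A few genes outside the lists rose on induction with the p300/CBP compound with a difference that passed against both other inductions, tests that share the 6 libraries of the p300/CBP compound. SAC3D1, a centrosomal protein, had 59.8, 64.7 and 59.7 CPM in induced libraries, against 19.4, 15.2 and 15.2 CPM in non-induced libraries, with a change of 1.86 ± 0.09, of 0.15 ± 0.10 with the PCAF/GCN5 compound and of 0.14 ± 0.21 with DMSO. FAM43A had 21.8, 22.5 and 20.1 CPM in induced libraries, against 4.24, 3.75 and 4.26 CPM in non-induced libraries, with a change of 2.38 ± 0.11, of 0.47 ± 0.15 with the PCAF/GCN5 compound and of 0.36 ± 0.25 with DMSO. FGFR3, a receptor of fibroblast growth factors, had 14.9, 18.1 and 19.2 CPM in induced libraries, against 5.34, 5.84 and 5.92 CPM in non-induced libraries, with a change of 1.61 ± 0.12, of 0.19 ± 0.14 with the PCAF/GCN5 compound and of 0.13 ± 0.13 with DMSO. For all 3 the groups under the p300/CBP compound were apart. The differences from DMSO were 1.73 ± 0.25, 2.01 ± 0.27 and 1.48 ± 0.17, and those from the PCAF/GCN5 compound 1.71 ± 0.14, 1.90 ± 0.17 and 1.40 ± 0.17. DPYSL4 differed by 2.24 ± 0.28 from the PCAF/GCN5 compound, and the protease CTSB (-0.41 ± 0.07) and SPRY4 (-0.45 ± 0.08) were more negative.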

How the data were processed

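RNA-seq libraries of H1299 cells were made from total RNA with a directional kit, per the labels' protocols. The authors deposited 4 tables that hold raw counts per gene for all 18 libraries, per the file headers; the submitters' processing notes name StringTie and DESeq2, and the aligner, the counting program, the genome build and the versions are not given in the sources used here. Each library's columns were matched to its sample through the label that repeats the column name. Tables were joined by gene ID into 60622 genes, and 1 further gene, ANK2, was left out because its line is broken in a table. Positions are those of the files; 46551 of 58515 IDs (79.6%) shared with GENCODE 29 on GRCh38 have the same position there, on which the build named here rests.

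From these counts, genes were filtered with filterByExpr, scaled by TMM and tested with edgeR 4.0.16 (R 4.3.3) by the quasi-likelihood F test, 2-sided, with Benjamini-Hochberg adjustment over all genes tested and a call at an adjusted p below 0.05. The induction change used its 6 libraries alone. The differences between inductions were tested as an interaction on 12 libraries each, and the changes in DMSO and with the PCAF/GCN5 compound in fits of their own. Standard errors are the log2 fold change over the square root of F, and 95% intervals of differences use them with a t distribution on 8 degrees of freedom. CPM is the count divided by the library total, times 1000000. Counting intervals and floors cover counting error only, and no molecular identifiers are named in the sources used here. DESeq2 1.42.0 gave an alternative. On simulated data the induction test recovered 67% of 1.5-fold and 83.5% of 2-fold changes with 10.59% of calls false. The difference from DMSO recovered 39.2% and 69.4% with 3.57%, and the difference from the PCAF/GCN5 compound 43.1% and 70.4% with 12.4%. Each simulation changed 200 genes drawn at random, all by 1.5- or 2-fold. The real induction test called 4844 genes, so these shares do not carry over to its calls.

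The members and gene lists were chosen with earlier results of these data known, so list counts are descriptions. Genes were named by rule: the 12 largest changes in each direction on induction and the 8 in each direction in each difference among called genes with a mean of at least 5 CPM and groups that do not overlap, plus fixed names and, per list, up to 4 called members of largest change, up to 3 that moved the other way and up to 3 that did not pass. CCNG1, TNFRSF10D, FOXM1, CDK1, CLSPN, ABL2, PTPRA, MCC, DYNC2H1 and PTCHD4 fall outside it and were chosen after their values or promoter matches were seen, as were those stated in the text. Promoter windows came from RefSeq (GRCh38.p14). Alternatives were size factors by median of ratios, DESeq2, no filter, a filter of 1 CPM in 3 libraries, a replicate block, all 6 groups in 1 fit, and each library left out. Leaving out the third library of both DMSO groups was added after seeing the data. Some genes are not reported here.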

Additional observations from a re-analysis of the deposited data

Results flagged for a closer look

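Results named above were marked for a closer look when the change on induction differed between treatments, that is, when edgeR's quasi-likelihood test of the difference between 2 inductions passed at an adjusted p below 0.05. Each value is the log2 change on induction with the p300/CBP compound minus that in the other treatment.

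Against DMSO, p53 target genes with a more positive change with the compound were IGFBP3 (4.95), TP53I11 (4.60), TP53I3 (2.56), CDKN1A (2.56), PLTP (2.27), KITLG (1.99), FAS (1.63), CMBL (1.47), SESN1 (1.24), POLH (1.20), RPS27L (1.20), CYFIP2 (1.19), PRKAB1 (1.11), NOTCH1 (1.08), ZMAT3 (0.93), RRM2B (0.71), PLK2 (0.70) and TNFRSF10B (0.62). Genes of other lists or of none, also more positive, were SEPTIN4 (4.55), DPYSL4 (3.18), VCAN (2.84), FAM43A (2.01), SAC3D1 (1.73), FGFR3 (1.48), PCNA (0.85), ATF3 (0.81) and TYMS (0.55). More negative with the compound were LINC02593 (-1.27), ABCD2 (-0.92), ANGPTL4 (-0.84), NTSR1 (-0.82), SPRY4 (-0.53) and CCND1 (-0.46).

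Against the PCAF/GCN5 compound the change was more positive with the p300/CBP compound for DPYSL4 (2.24), FAM43A (1.90), SAC3D1 (1.71), TP53I3 (1.63), FGFR3 (1.40), CDKN1A (1.36), NOTCH1 (1.08), FAS (0.93), PLTP (0.85), CMBL (0.78) and PCNA (0.52). It was more negative for SPRY4 (-0.45) and CTSB (-0.41). Both sets of differences share the 6 libraries of the p300/CBP compound.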

How the results depend on the processing

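Leaving out each library in turn moved the 4844 genes called on induction between 3698 and 5745, and counts were 4316 with DESeq2, 4803 with no filter and 3713 with all 6 groups in 1 fit. The number of p53 target, mitosis, S phase, recombination and sterol genes called in their list's direction stayed within 1.5 times in every alternative run. The 3 replicate numbers did not pair the samples (correlations of deviations of 0.003, -0.043 and 0.038 between same-numbered libraries); with a replicate block 4996 genes were called on induction, 162 in the difference from DMSO and 45 in that from the PCAF/GCN5 compound.

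Counts of differences between inductions moved further. Against DMSO the 200 genes (170 more positive, 30 more negative) became 416 with no filter (260 and 156) and 362 without the third library of both DMSO groups (256 and 106), and the more negative ones 66 with DESeq2 and 52 with all 6 groups in 1 fit. Single libraries left out gave 123 to 432 genes, 109 to 299 more positive and 13 to 133 more negative. Against the PCAF/GCN5 compound the 51 genes (40 and 11) became 109 with DESeq2 (73 and 36) and 181 with no filter (139 and 42); the more negative ones were 5 with all 6 groups in 1 fit and 4 to 17 with a library left out. The p53 genes there were 8 with all 6 groups in 1 fit and 8 to 12 with a library left out. The cause of these shifts was not tested. At an unadjusted p below 0.05 6148, 1634 and 1314 genes passed in the 3 tests.

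Signs turned for genes near 0: CCNE1 on induction (-0.036 to 0.063 with a library left out), CREBBP (-0.039 to 0.031) and IGFBP3 against the PCAF/GCN5 compound (-0.23 to 0.57).

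Depth limits genes with few non-induced counts, whose folds are lower bounds or ratios with wide intervals. The labels give neither a dose nor the origin of the replicates, which limits all comparisons.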

Other observations

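Some genes outside the lists had almost no counts in non-induced cells, and 3 of them are given here, chosen after their values were seen. H19, an imprinted long noncoding RNA, had 71, 104 and 121 counts in induced libraries of the p300/CBP compound, against none in the 3 non-induced libraries, which makes it at least 32.5-fold higher against the mean floor of 3 counts per library. Induced libraries held 15, 12 and 15 counts of H19 with the PCAF/GCN5 compound and 13, 19 and 12 with DMSO. AREG, a ligand of the EGF receptor, had 72, 54 and 67 counts in induced libraries of the p300/CBP compound, against 0, 1 and 0 in non-induced ones, a ratio of 196 with a 95% counting interval of 34.7 to 7770.0. With the PCAF/GCN5 compound its induced libraries held 13, 9 and 11 counts, and with DMSO 7, 6 and 8. CLCA2, a membrane protein known as a p53 target, had 68, 90 and 93 counts in induced libraries of the p300/CBP compound, against 0, 1 and 0 in non-induced ones, a ratio of 255 with an interval of 45.3 to 10100.0. Its induced libraries held 100, 68 and 67 counts with the PCAF/GCN5 compound and 10, 7 and 20 with DMSO. Induced counts of H19 and AREG were thus highest with the p300/CBP compound, while those of CLCA2 overlapped between both compounds; the libraries differ in depth, and no test of these differences is given.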
